A study of Mus musculus with 8 samples.

Results

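Metallothioneins and zinc export are represented here by 4 genes, Mt1, Mt2, Mtf1 and Slc30a1, picked by symbol from the 49490 gene rows of one deposited table and the 55291 gene rows of another. They were picked with the changes of both tables in view, so their values are given as a description, with fold changes and standard errors but no test. Metallothioneins are small cysteine-rich proteins that bind zinc and copper and buffer the free metal in the cell. MTF1 is a zinc-sensing transcription factor that enters the nucleus when zinc is plentiful and binds metal response elements, short motifs in front of the metallothionein genes and of Slc30a1. SLC30A1, also called ZnT1, is the transporter that carries zinc out of the cell across the plasma membrane. T cells alter their zinc uptake when they are stimulated.

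The libraries were polyA RNA of mouse CD8+ T cells from spleens and lymph nodes. In the first experiment, cells of genotype Trim28-/- were compared with Trim28fl/fl cells (a floxed, intact Trim28, labelled WT), both activated in vitro. In the second, cells of genotype WT were kept for 3 days with antibodies to CD3 and CD28, which stimulate the T cell receptor and its co-receptor, and were either left untreated or given an antibody against IL-2, the growth cytokine of activated T cells. The strain and age of the mice, the Cre that deleted Trim28 and the length of the first activation are not given in the sources used here. Each of the 4 groups had 2 libraries and nothing says that these came from separate mice or cultures. Errors and p-values therefore cover library-to-library spread, possibly technical, and no more.

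Trim28, which encodes a chromatin corepressor, stood at normalised read counts of 4262 and 4323 in the control libraries and 415 and 458 in the knockout libraries. Il2ra, a gene that IL-2 is known to induce, was at 44645 and 43661 in untreated and 22025 and 21937 in anti-IL-2 libraries. Il2 stood at 9299 and 9217 in control and 5246 and 5410 in knockout libraries. In the second experiment Trim28 stood at 5774 and 5920 in untreated and 7926 and 8528.5 in anti-IL-2 libraries. Recovered reads ranged from 13222831 to 13469789 per library in the first experiment and from 16618750 to 17069569 in the second. The CD8 markers Cd8a and Cd8b1 summed to between 7774 and 12518 in every library, and the 5 T cell markers to between 21885 and 40538. Among the 6 myeloid markers only Cd68, which is not restricted to myeloid cells, was above 50 in any library. Lyz2, Itgam, Cd14, Csf1r and Adgre1 lay between 0 and 45.6.

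Mt1 and Mt2 lie side by side on chromosome 8 (GRCm38; Mt2 at 94172664 to 94173568 and Mt1 at 94179082 to 94180327, both on the plus strand), with 5513 bases between them. Slc30a1 lies on chromosome 1 (191906767 to 191913247) and Mtf1 on chromosome 4 (124802104 to 124849800), and all 4 encode proteins. The 250 bases before the RefSeq start of the 3 metal-responsive genes are shown because they hold the motifs that MTF1 is known to bind. Capitals mark matches to the metal response element core, TGCGCNC or TGCACNC, on either strand. All windows are from GRCm38.p6, on the plus strand, at chr8:94178839-94179088 for Mt1, chr8:94172368-94172617 for Mt2 and chr1:191906531-191906780 for Slc30a1.
Mt1: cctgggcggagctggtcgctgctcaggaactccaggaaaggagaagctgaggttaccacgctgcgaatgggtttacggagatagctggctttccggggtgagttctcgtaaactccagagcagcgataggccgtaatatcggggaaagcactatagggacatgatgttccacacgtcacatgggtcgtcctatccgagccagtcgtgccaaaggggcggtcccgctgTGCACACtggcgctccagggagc
Mt2: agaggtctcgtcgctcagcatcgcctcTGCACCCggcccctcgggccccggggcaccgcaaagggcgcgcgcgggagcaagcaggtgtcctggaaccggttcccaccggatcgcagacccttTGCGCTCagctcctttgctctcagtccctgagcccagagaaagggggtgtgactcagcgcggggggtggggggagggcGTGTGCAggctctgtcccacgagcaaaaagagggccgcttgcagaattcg
Slc30a1: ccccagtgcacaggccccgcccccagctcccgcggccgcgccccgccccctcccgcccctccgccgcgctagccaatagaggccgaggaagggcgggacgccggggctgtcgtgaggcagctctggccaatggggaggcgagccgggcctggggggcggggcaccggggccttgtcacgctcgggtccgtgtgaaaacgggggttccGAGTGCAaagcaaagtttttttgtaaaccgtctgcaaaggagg

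The Mt2 window held 3 matches, a number that 1.26% of the 32851 RefSeq promoter windows of this length reach. The Mt1 and Slc30a1 windows held 1 match each, as 21.4% of all windows do or exceed, and the Mtf1 window held 0. Among windows within 5 percentage points of the same GC content, 3.18% held as many as that of Mt2, 25.3% as many as that of Mt1 and 44.7% as many as that of Slc30a1. GENCODE gives 3 transcript starts for Mt1, spread over 159 bases, and the RefSeq start lies 7 bases after the first of them. The first 150 bases of the Mt1 transcript that starts farthest upstream held 4 further matches, beginning at bases 10, 28, 92 and 106, all before the most downstream start. Of 58695 protein-coding transcripts, 0.0545% had as many there. Mt2 had 3 in the first 150 bases of its transcript (0.388% had as many), Slc30a1 had 1 (15.2%) and Mtf1 had 0. The transcript scanned was the longest CCDS transcript of each gene, which need not be the one that starts farthest upstream. The RefSeq start of Mt2 lies before its first GENCODE start, and the bases between the 2 were not searched. One match to the antioxidant response element, TGACNNNGC, lay in the Mt2 window and one in the Slc30a1 window, against 10.2% of all windows with any. The STAT motif TTCNNNGAA, present in 7.02% of windows, was found in none of the 4. Neither the STAT motif nor the antioxidant response element was sought in the first 150 bases of the transcripts. The RefSeq start of Mtf1 lies 445 bases after its first GENCODE start, so its whole window lies after that start. A match describes the letters only.

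**Figure D1:**
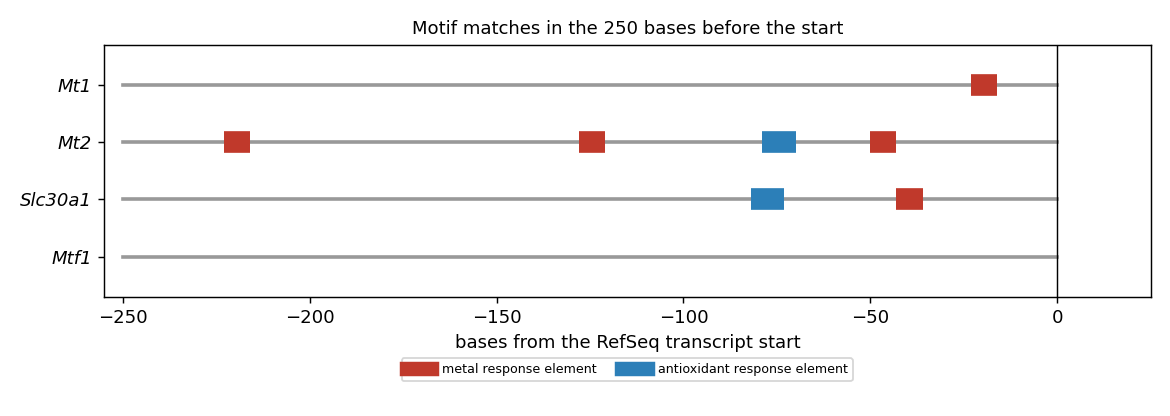
Positions of motif matches in the 250 bases before the RefSeq transcript start (x axis, bases from the start) of the 4 genes; red blocks are metal response element cores and blue blocks antioxidant response elements. Mt2 holds 3 metal response cores, Mt1 and Slc30a1 hold 1 each and Mtf1 holds 0.

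Both metallothionein genes were lower in knockout cells and far lower in cells given the IL-2 antibody. Slc30a1 was also lower in both, by more in the knockout, while the sensor gene Mtf1 was lower by a small margin in both. In each experiment all 4 genes had both treated libraries below both reference libraries. Over all tested genes that held for 38.9% in the knockout and 38.2% with the antibody (the reverse held for 43.4% and 41.1%), and nothing is read from the count because the genes were chosen on these contrasts. With the further condition of at least a 2-fold change, 3 of the 4 met it in the knockout (6.76% of all genes) and 2 of the 4 with the antibody (10.1% of all genes). In bulk RNA, fewer cells that make a transcript and less of it per cell cannot be told apart.

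Mt1, which encodes one of the 2 metallothioneins found in most mouse tissues, had normalised read counts of 3243 and 3005 in control libraries and 1137 and 1265 in knockout libraries. The control libraries were thus the high ones, and the groups did not overlap. Their means were 3124 ± 168 and 1201 ± 89.9 (SD, n = 2), a 2.60-fold lower level in the knockout (log2 fold change -1.38, SE 0.062, on the log2 scale of value + 1). In the second experiment Mt1 stood at 1932 and 1789.9 in untreated libraries and at 139 and 144 in antibody libraries. That is 1861 ± 100.5 against 142 ± 3.17 (SD, n = 2), a 13.0-fold lower level with the antibody (log2 fold change -3.71, SE 0.078). The low values rest on 146 and 150 recovered reads. In the authors' deposited table, the log2 ratio of reference over treated was 1.38 in the first experiment and 3.72 in the second for Mt1.

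Mt2, which encodes the other widely expressed metallothionein, was lower in the same libraries. Its normalised read counts were 3191 and 2821 in control libraries and 1005 and 1144 in knockout libraries. All control values were above all knockout values, at 3006 ± 261 and 1075 ± 98 (SD, n = 2), for a log2 fold change of -1.48 (SE 0.081). Untreated libraries held 854 and 687 and antibody libraries 52.5 and 63.3. The means of 771 ± 118 and 57.9 ± 7.63 (SD, n = 2) gave a log2 fold change of -3.71 (SE 0.13), the same as that of Mt1 to 2 decimals. The antibody libraries held 55 and 66 recovered Mt2 reads.

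Among all tested genes, 4.34% had a log2 fold change as low as that of Mt1 or lower in the knockout, and 3.83% as low as that of Mt2. With the antibody the shares were 0.529% and 0.515%, which places both genes among the 74 with the lowest fold changes of 13978. The log2 fold changes of both genes were farther from 0 with the antibody than in the knockout, and this difference between the experiments was not tested.

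**Figure D2:**
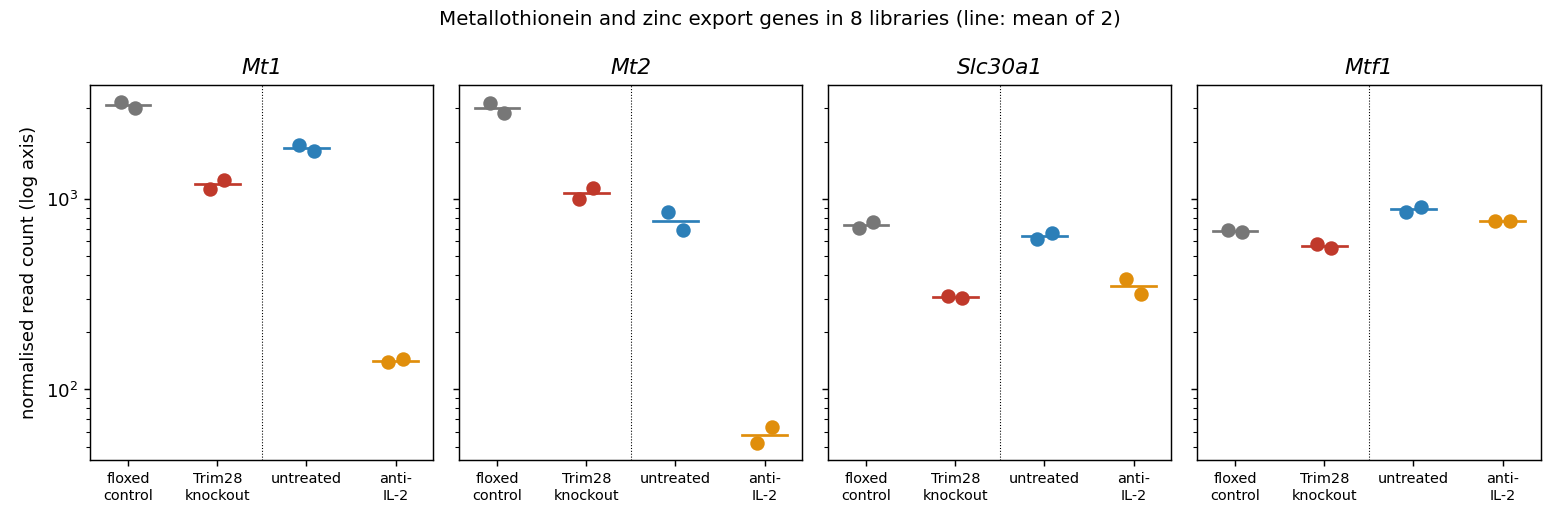
Normalised read count (y axis, log scale) of Mt1, Mt2, Slc30a1 and Mtf1 in the 2 libraries of each group, with the group mean as a line; the dotted line divides the 2 separately normalised experiments. Mt1 is 13.0-fold and Mt2 13.1-fold lower with the antibody, Slc30a1 is 1.85-fold lower, and Mtf1 lies between 556 and 911 in every library.

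The proportion of the 2 metallothionein genes differed more between the experiments than within them. Mt1 made up 50.4% and 51.6% of the Mt1 and Mt2 reads in control libraries, and 53.1% and 52.5% in knockout libraries. The exact 95% binomial intervals were 49.2% to 51.6% for the first control library and 51.0% to 55.2% for the first knockout library, which overlap and cover counting error only. Both knockout shares were nonetheless above both control shares. In the second experiment the share was 69.3% and 72.3% in untreated libraries, and 72.6% and 69.4% in antibody libraries, so the groups overlapped although both genes were about 13-fold lower with the antibody. The share was higher in all 4 libraries of the second experiment than in all 4 of the first. An antisense gene, Gm45774, covers 432 exonic bases of Mt2 on the other strand, and 45.8% of all 50-base windows of the Mt2 transcripts occur in it. Gm45774 matched a row in the second table, at 7.27 and 10.3 in untreated libraries and 0 in both antibody libraries, and no row in the first. Reads of the 2 genes could not be separated without strand information, and the part of this in the difference in share was not tested. No 50-base window of Mt1 occurred in a transcript of another gene, Mt2 included.

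**Figure D3:**
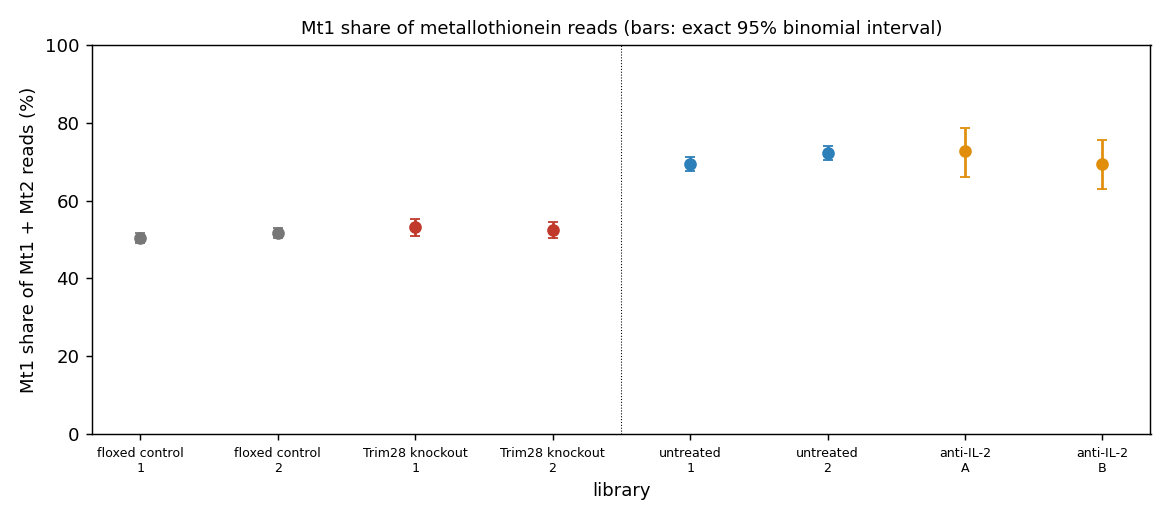
Share of Mt1 among the reads of Mt1 and Mt2 together (y axis, percent) in each of the 8 libraries (x axis), with exact 95% binomial intervals as bars. The 4 libraries of the first experiment lie between 50.4% and 53.1% and those of the second between 69.3% and 72.6%.

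Slc30a1, the gene of the plasma membrane zinc exporter, had normalised read counts of 703 and 760.3 in control libraries and 311 and 302 in knockout libraries. Both knockout values were below both control values, at 732 ± 40.6 and 307 ± 6.54 (SD, n = 2), a 2.38-fold lower level (log2 fold change -1.25, SE 0.057). In untreated cells it stood at 619 and 667 and with the antibody at 381 and 317. Its means there were 643 ± 33.9 and 349 ± 44.9 (SD, n = 2), a 1.85-fold lower level (log2 fold change -0.88, SE 0.090). Unlike the metallothioneins, Slc30a1 had the larger fold change in the knockout, a difference that was not tested. An antisense gene, 1700034H15Rik, overlaps 761 exonic bases at its 5′ end and was listed at between 5.07 and 18.1 in all 8 libraries.

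Mtf1, the gene of the zinc sensor, had the smallest fold change of the 4 in both experiments. Its normalised read counts were 686 and 669 in control libraries and 583 and 556 in knockout libraries, means of 677 ± 11.7 and 569 ± 19.2 (SD, n = 2) and a log2 fold change of -0.25 (SE 0.046). It held 859 and 911 in untreated libraries and 771 and 768 in antibody libraries, means of 885 ± 36.7 and 769.7 ± 2.23 (SD, n = 2) and a log2 fold change of -0.20 (SE 0.066). Neither pair of groups overlapped, and the fold was 1.19 in the knockout and 1.15 with the antibody. Log2 fold changes as low or lower were found for 27.9% of all tested genes in the knockout and 33.7% with the antibody. Its 3′ end overlaps 1110065P20Rik on the other strand over 721 exonic bases, which was at 118 to 165 in all 8 libraries.

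Levels of different genes were compared per length, as RPKM (reads per kilobase of the longest CCDS transcript, scaled to the recovered reads of the library). In control cells Mt2 (438, libraries at 412 and 464.5) and Mt1 (424, libraries at 408 and 439) did not differ beyond their spread. Slc30a1 followed at 10.4 and Mtf1 at 6.61. In knockout cells Mt1 stood at 166 and Mt2 at 159, again with overlapping libraries, and Mtf1 at 5.65 was above Slc30a1 at 4.43. The annotations behind the tables are not given and may differ around Mt2, where Gm45774 is matched in the second table only, so the place of Mt2 in the second experiment carries that doubt. Untreated cells of the second experiment had Mt1 at 197 and Mt2 at 87.6, while Slc30a1 (7.13) and Mtf1 (6.74) overlapped. With the antibody the order was Mt1 at 15.8 RPKM, Mt2 at 6.94, Mtf1 at 6.18 and Slc30a1 at 4.08, with no overlap between neighbours in that order. The Mt2 libraries there (6.32 and 7.57) were little above those of Mtf1 (6.15 and 6.21).

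The remaining metallothionein genes were weakly expressed. Mt3, known best from brain, lies 24.9 kb from Mt1. It is not among the 4 genes, but its list too was drawn up with earlier results known, so its test is not independent evidence. It fell from 24.3 and 25.3 in control libraries to 5.91 and 0 in knockout libraries (limma, log2 fold change -3.30, SE 0.86, adjusted p = 0.0182), a call lost when genes of any level were tested (adjusted p = 0.151). This size rests on few reads and on 1 library: the log2 fold change was -4.69 without knockout replicate 1, -1.90 without knockout replicate 2 and -2.01 with a pseudocount of 5. With the antibody it fell from 28.1 and 39.1 to 2.86 and 3.84 (log2 fold change -2.98, SE 0.39, limma adjusted p = 2.18e-06). When genes of any level were tested, the limma adjusted p with the antibody was 0.00942. In both experiments Mt3 reached the test filter only in the reference libraries, so whether it was tested depended on the difference. Mt4, an epithelial metallothionein, was at 0 in all 4 libraries of the first experiment and at most 1.04 in the second.

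Beside the Mt cluster, 2 genes went the other way. Nup93, a nuclear pore gene 34.2 kb from Mt1, rose in the knockout (log2 fold change 0.78, SE 0.037, limma adjusted p = 3.11e-05) and with the antibody (0.88, SE 0.060, adjusted p = 2.74e-10). Herpud1, a gene of the response to misfolded protein 206.1 kb from Mt1, rose in the knockout (0.83, SE 0.029, limma adjusted p = 1.45e-05) and with the antibody (0.34, SE 0.059, adjusted p = 6.02e-05).

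Of 17 tested zinc transporter genes other than Slc30a1, 2 rose and 6 fell in the knockout, and of 20 tested, 4 rose and 7 fell with the antibody. Over all tested genes, 32.9% rose and 28.2% fell in the knockout and 31.4% rose and 28.9% fell with the antibody. Slc39a10, the gene of a zinc importer that zinc-loaded MTF1 is known to repress, rose in both experiments, against the direction of Slc30a1. It went from 415 and 409 in control libraries to 525 and 514 in knockout libraries (log2 fold change 0.33, SE 0.046, limma adjusted p = 0.00149), a call that DESeq2 did not make (adjusted p = 0.0659). With the antibody it went from 330.5 and 369.7 to 631 and 553 (log2 fold change 0.76, SE 0.088, limma adjusted p = 5.13e-07). In the SLC39 family of importers, 2 rose and 3 fell of 12 tested genes in the knockout, with a median log2 fold change of -0.039 beside 0.031 for all genes. Slc39a6, the gene of an importer linked to T cell activation, rose (0.63, SE 0.033), while Slc39a8 (-0.60, SE 0.073) and Slc39a14 (-0.32, SE 0.056) fell. With the antibody 3 rose and 4 fell of 13, with a median of 0.045 beside 0.018 for all genes. Slc39a2, which was not called, is among the 13 and reached the test filter only in antibody libraries. Slc39a4, best known from gut zinc uptake, rose (0.63, SE 0.11) and Slc39a13 fell (-0.58, SE 0.10).

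In the rest of the SLC30 family of zinc transporters, 0 rose and 3 fell of 5 tested in the knockout (median -0.29). These were Slc30a4 (-0.29, SE 0.034), Slc30a7 (-0.33, SE 0.041) and Slc30a9 (-0.34, SE 0.045), all of internal membranes. With the antibody 1 rose and 3 fell of 7 (median 0.056). Slc30a2, which loads zinc into vesicles, went from 4.16 and 7.21 to 35.3 and 41.2 (log2 fold change 2.59, SE 0.35, limma adjusted p = 3.71e-06). Slc30a3 went from 16.6 and 11.3 to 0.955 and 0.959, with 1 read in each antibody library. Slc30a2 reached the test filter only in antibody libraries and Slc30a3 only in untreated libraries. Whether they were tested thus depended on their difference, and their calls are not independent evidence. Both count among the 7 tested here and the 20 tested zinc transporters. Slc30a9 (-0.34, SE 0.064) and Slc30a4 (-0.33, SE 0.067) also fell, the latter not when genes of any level were tested (limma adjusted p = 0.069). The number of SLC30 and SLC39 genes that fell with the antibody, 7 of 20, was 4 without untreated replicate 1 and 3 without untreated replicate 2.

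**Figure D4:**
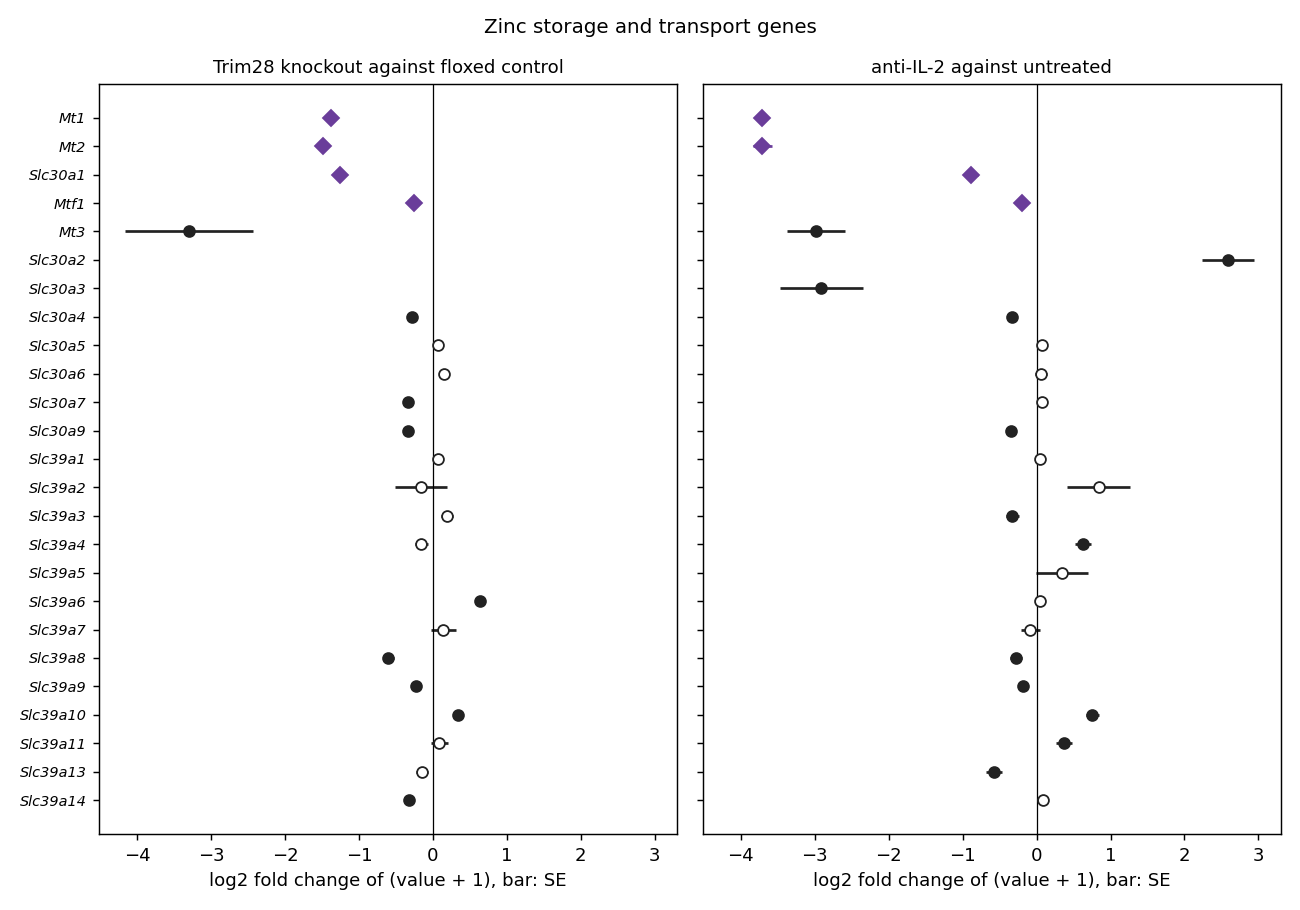
Log2 fold change (x axis, value + 1, with SE as bars) of the 4 metallothionein and zinc export genes (purple diamonds), Mt3 and the tested SLC30 and SLC39 genes (black circles; filled where the limma adjusted p was under 0.05, open where it was not) in each experiment. Mt1, Mt2 and Mt3 lie to the left in both panels and Slc39a10 to the right.

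Genes known from elsewhere as MTF1 targets, Slc39a10 and Slc30a2 among them, went in both directions. The list holds genes that MTF1 induces and Slc39a10, which it represses, so its median has no single reading. In the knockout 3 rose and 2 fell of 7 tested, with a median log2 fold change of 0.067, beside 32.9% and 28.2% of all tested genes. DESeq2 kept 1 of the 3 and both of the 2, and without knockout replicate 2 the call of Csrp1, the other gene that fell, was lost with that of Selenoh. Selenoh was also lost without knockout replicate 1. With the antibody 6 rose and 2 fell of 8, with a median of 0.45, beside 31.4% and 28.9% of all tested genes. Slc30a2 was among the 6 and reached the test filter only in antibody libraries. Ndrg1, a stress-induced gene with other known inducers such as hypoxia, fell from 12068 and 12096 to 7681 and 7658 in the knockout (log2 fold change -0.66, SE 0.022) and from 6291 and 6109 to 1245 and 1289 with the antibody (-2.29, SE 0.052). Txnrd2, of the mitochondrial thioredoxin system, rose in the knockout (0.89, SE 0.088), and Selenoh, a selenoprotein gene, rose with the antibody (0.64, SE 0.062). Selenow, another selenoprotein gene, fell with the antibody (-0.50, SE 0.068).

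The genes nearest to Mt1 in the plane of the 2 log2 fold changes were sought among 8642 genes with a mean value of at least 100 in each table. Socs3, a feedback inhibitor of cytokine signalling, had a distance of 0.035 (log2 fold changes -1.37 and -3.74 in the knockout and with the antibody), and Mt2 one of 0.10. The standard errors of the Socs3 fold changes were 0.053 and 0.16, so the order of Socs3 and Mt2 is within error. The membrane protein gene Emp1 (-1.29 and -3.55), the vesicle traffic gene Sytl1 (-1.52 and -3.49) and the growth factor gene Hbegf (-1.14 and -3.51) were the other 3 of the 5. The measure rests on 2 group differences in 8 libraries and says only that these genes changed by similar amounts.

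Markers of other cells were set beside these values. The 6 myeloid markers summed to 248 and 292 in control and 144 and 154 in knockout libraries. In the second experiment they summed to 346 and 355 in untreated and 88.8 and 85.4 in antibody libraries. This sum was lower where the metallothioneins were lower, but Cd68 made up most of it in each library. Cd68 was the only 1 of the 6 called, lower in both experiments (limma log2 fold change -0.76, SE 0.074, and -2.25, SE 0.12). The others were low and went both ways with the antibody. Lyz2 went from 2.08 and 4.12 in untreated to 5.73 and 6.71 in antibody libraries, and Itgam from 11.4 and 10.3 to 5.73 and 9.59. Adgre1, a defining macrophage marker, was at 0 in all 4 libraries of the first experiment and at most 5.20 in the second. The 4 CD4 T cell markers summed to 504 and 524 in control and 153 and 170 in knockout libraries, but went apart. Cd40lg (limma log2 fold change -2.95) and Zbtb7b (-1.27) fell, Foxp3 rose from 4.06 and 5.07 to 43.3 and 49.0, and Cd4 itself was at most 7.88. With the antibody the sum was 569.5 and 496 in untreated and 557 and 586 in antibody libraries, while Foxp3 fell from 58.2 and 50.5 to 8.59 and 9.59, Zbtb7b fell (-0.51) and Cd40lg rose (0.49). Of the B cell markers, Cd79a went from 15.2 and 16.2 in control to 2.95 and 2.94 in knockout libraries and Cd79b from 18.3 and 20.3 to 5.91 and 4.90, and both fell (limma log2 fold changes -2.08, SE 0.28, and -1.66, SE 0.25). With the antibody Cd79b stood at 35.3 and 25.7 in untreated and 42.0 and 37.4 in antibody libraries and was not called. Of the 3 NK cell markers, Ncr1 was at 0 in all 8 libraries and only Eomes, which activated CD8+ T cells also express, was tested. It rose in the knockout (0.60, SE 0.091) and fell with the antibody (-1.14, SE 0.10). The 4 stromal markers summed to 154 and 369 in control and 226 and 257 in knockout libraries, with none called of 3 tested (limma, unadjusted p under 0.05 for 0). They summed to 70.7 and 142 in untreated and 178 and 184 in antibody libraries, where Col1a1 (0.82, SE 0.23) and Col3a1 (1.06, SE 0.40) rose. The 3 erythroid markers summed to at most 15.4 in any library. The T cell markers themselves summed to 40538 and 39670.1 in untreated and 24890 and 26394 in antibody libraries, and 4 of the 5 fell. The CD8 markers Cd8a and Cd8b1 summed to 12518 and 12444 in untreated and 9011 and 9198 in antibody libraries. Both fell there (limma log2 fold changes -0.40, SE 0.048, and -0.54, SE 0.050). In the knockout they went apart, Cd8a rising (0.25, SE 0.033) and Cd8b1 falling (-0.48, SE 0.036). The part of other cells, or of these shifts, in the metallothionein values was not tested.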

How the data were processed

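PolyA RNA-seq of 8 mouse CD8+ T cell libraries was analysed, 2 per group. The authors' tools, per the submitters' processing notes, included HISAT2 2.2.1 and the mm10 build, Trim Galore 0.4.4, DESeq2 and StringTie 2.1.4; the read counter and annotation are not given in the sources used here. The values deposited per library are a normalised signal, which the values show to be gene read counts divided by 1 size factor per library within each table. The authors also deposited log2 fold changes, p-values and a test score, of which only the log2 values were used, beside fits made here. Whole reads were recovered for 100% of values, within 0.001 of the read number. By that recovery the depth was known, and precision at low levels is limited by read number.

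The genes that reached 10 in 2 or more libraries, 15415 and 13978 of them, were fitted on log2 (value + 1) with limma 3.58.1 in R 4.3.3, each experiment alone, with Benjamini-Hochberg adjustment over all tested genes and a threshold of 0.05. A gene can pass the filter of 10 through 1 group alone, and whether it is tested then depends on the difference. Mt3, Slc30a2, Slc30a3, Foxp3, Cd79a, Itgam and, in the knockout, Cd79b were such genes, as was Slc39a2 with the antibody. Fold changes on the log2 (value + 1) scale are understated for low genes. The alternatives were TMM or upper-quartile scaling, other filters and pseudocounts, edgeR 4.0.16 and DESeq2 1.42.0 on recovered reads, a replicate block and leaving out each library. The limma step was tested on simulated data. The 4 genes and all lists were chosen with earlier results of these data known. Named genes were the 4 genes, in every list up to 4 called genes, those of lowest adjusted p, and the 5 genes nearest to Mt1. Not all of these are given in the text. Part of the list of genes near the Mt cluster is not reported here. Gene models are from GENCODE vM21 on GRCm38 and promoter sequences from RefSeq (GRCm38.p6), which held all 4 genes. Of the columns for antibody-treated cells, neither carried a replicate number, and they are called A and B.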

Additional observations from a re-analysis of the deposited data

How the results depend on the processing

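Mt1, Mt2, Slc30a1 and Mtf1 kept their direction in every alternative run, in both experiments. The log2 fold change of Mt1 ranged from -1.46 to -1.30 in the knockout and from -3.76 to -3.65 with the antibody, and that of Mt2 from -1.58 to -1.39 and from -3.87 to -3.55. Slc30a1 ranged from -1.33 to -1.19 and from -1.02 to -0.75, and Mtf1 from -0.33 to -0.22 and from -0.25 to -0.16. The number of all genes called higher in the knockout was 2846 with DESeq2, with 2660 lower, against 5065 and 4344 by limma. Upper-quartile scaling turned the balance of calls in both experiments, to 4199 higher and 5227 lower in the knockout and 3822 higher and 4498 lower with the antibody (4391 and 4033 with the deposited scaling). Leaving out 1 library, with the lone library of a group assumed to vary like the other group, gave 3336 to 4704 genes higher in the knockout. Zinc transporters called higher in the knockout numbered 1 with DESeq2 and 2 by limma, and those called lower with the antibody numbered 3 to 7 when 1 library was left out. Of the alternatives for other list genes called, 866 kept the call, 80 lost it and 0 changed direction. With the replicate block, possible in the first experiment only, 2 zinc transporters rose and 6 fell as without it, and 4881 genes rose and 4197 fell. The deviations of same-numbered libraries had a correlation of 0.013 over all tested genes and -0.25 over the 10335 with a mean value of at least 100, and neither pairs the libraries by number. The value of -0.25 has the sign that crossed pairs would give. A block for such pairs (control 1 with knockout 2, control 2 with knockout 1) was not fitted. No paired analysis was possible in the second experiment because its antibody columns carry no number. Mt2 in antibody libraries rests on 55 and 66 reads, which limits the precision of its fold change.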

Other observations

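Genes of 3 further groups that bear on metallothionein expression were looked at. Among 12 oxidative stress genes, Srxn1, which repairs over-oxidised peroxiredoxins, fell in the knockout from 1299 and 1272 to 262 and 259.8 (limma, log2 fold change -2.30, SE 0.042, adjusted p = 3.12e-06). It also fell with the antibody, from 1347 and 1291 to 165 and 204 (-2.84, SE 0.092, adjusted p = 3.78e-15). In the knockout 5 of the 11 tested genes of the list rose and 2 fell, Srxn1 and Nfe2l2, beside 32.9% and 28.2% of all tested genes. Of the 5 that rose, 2 kept the call with DESeq2 and 3 without knockout replicate 1 or 2, where Hmox1 and Slc7a11 lost it. Nfe2l2 lost its call without knockout replicate 1. With the antibody 7 of 11 rose and Srxn1 alone fell, beside 31.4% and 28.9% of all tested genes. Txn1 (0.13, SE 0.052), among the 7, lost its call with DESeq2, edgeR and upper-quartile scaling, and when genes of any level were tested. Gclm, a subunit of the glutathione synthesis enzyme, rose in both (0.53 and 0.66).

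Glucocorticoids are known inducers of metallothioneins, and 10 genes they induce or act through were listed. In the knockout 2 rose and 6 fell of 9 tested (median log2 fold change -0.39), and with the antibody 2 rose and 4 fell of 9 (median -0.35). Of all tested genes, 32.9% rose and 28.2% fell in the knockout, and 31.4% rose and 28.9% fell with the antibody. Without knockout replicate 1, 4 of the 6 that fell in the knockout kept the call, Cdkn1c and Ddit4 losing it. Tsc22d3, which encodes the glucocorticoid-induced leucine zipper, fell in both (-1.14, SE 0.051, and -1.89, SE 0.17), as did Klf9 (-0.84 and -1.06). Fkbp5, a chaperone of the receptor, rose in both (0.60 and 0.73). Dusp1 had the largest knockout change of the list and rose, from 764 and 796 to 1791 and 1876 (1.23, SE 0.042). It was not called with the antibody (-0.059). Ddit4 fell in the knockout (-0.31) and rose with the antibody (0.77).

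Of 11 copper-handling genes, 2 rose and 4 fell in the knockout, and 1 rose and 3 fell of 10 tested with the antibody. Over all tested genes 32.9% rose and 28.2% fell in the knockout, and 31.4% rose and 28.9% fell with the antibody. Without knockout replicate 1, 1 of the 2 and 2 of the 4 kept the call, and with DESeq2 0 of the 2 and 2 of the 4. With the antibody DESeq2 kept 0 of the 1 and 1 of the 3, as did leaving out untreated replicate 1 or 2, and leaving out anti-IL-2 replicate B kept 1 of the 3 that fell. Sod1, the copper and zinc superoxide dismutase gene, fell in the knockout (-0.41, SE 0.041) and with the antibody (-0.18, SE 0.052), the latter call being lost without untreated replicate 1 (limma adjusted p = 0.155) or 2 (0.059).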
